A study of Homo sapiens with 6 samples.

Results

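The small RNA processing genes examined here are 10 genes that carry out or assist the main steps of the microRNA and RNA interference pathway: RNASEN (current symbol DROSHA), DGCR8, XPO5, DICER1, TARBP2, DHX9, EIF2C1 (AGO1), EIF2C2 (AGO2), EIF2C3 (AGO3) and EIF2C4 (AGO4). They were taken by gene symbol from the probe table, and 19 of its 47322 probes belong to them. Of the 10 genes, 9 had a probe detected on enough arrays to be tested, among 12069 named genes and 382 unnamed probes tested in all. Each group had 3 arrays of MDA-MB-231, an established triple-negative breast cancer cell line with mesenchymal features, run on Illumina HumanHT-12 v4 BeadChips. One group was transduced with a short hairpin RNA (shRNA) against the transcription factor SOX4, a single hairpin, and the other with a scrambled shRNA, and both were grown in DMEM with serum. The title asks how SOX4 maintains the mesenchymal phenotype downstream of the ion channel TRPM7. Nothing in the labels tells whether replicates are separate cultures, and the p-values then cover only the spread among these arrays, which may be technical. In bulk RNA a lower level per cell and fewer cells with the transcript cannot be told apart.

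MicroRNAs are made from long primary transcripts. In the nucleus the Microprocessor, formed by the RNase III enzyme Drosha and its RNA-binding partner DGCR8, cuts out a hairpin, which exportin-5 carries to the cytoplasm. Dicer, helped by the double-stranded RNA-binding protein TRBP, removes the loop, and an Argonaute protein keeps 1 strand to guide the silencing of matching messengers. Hairpins introduced for knockdown pass through the same export, Dicer and Argonaute steps. All 6 samples carried such a hairpin, and no samples without one were analysed here, so a response shared by both hairpins could not be seen.

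Of the 9 tested genes, DICER1 rose 1.27-fold, EIF2C3 fell and the other 7 did not pass an adjusted p of 0.05 (limma, Benjamini-Hochberg over all genes tested). Among all genes tested 30.6% passed that threshold, 15.2% upward and 15.4% downward, and 2 of 9 is a share near that background. EIF2C3 passed the detection filter through the scrambled arrays, the group where it was higher. The median log2 difference of the 9 genes, SOX4 shRNA minus scrambled, was 0.08, against -0.01 over all genes tested. Their median size of difference was 0.13 on the log2 scale, against 0.16 over all genes tested. SOX4 itself fell by 2.43 ± 0.14 on the log2 scale (± SE, n = 3 in each group; adjusted p = 4.1e-13, limma), a size that moved with the processing, to -1.23 without background correction and -3.22 in the authors' values.

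**Figure D1:**
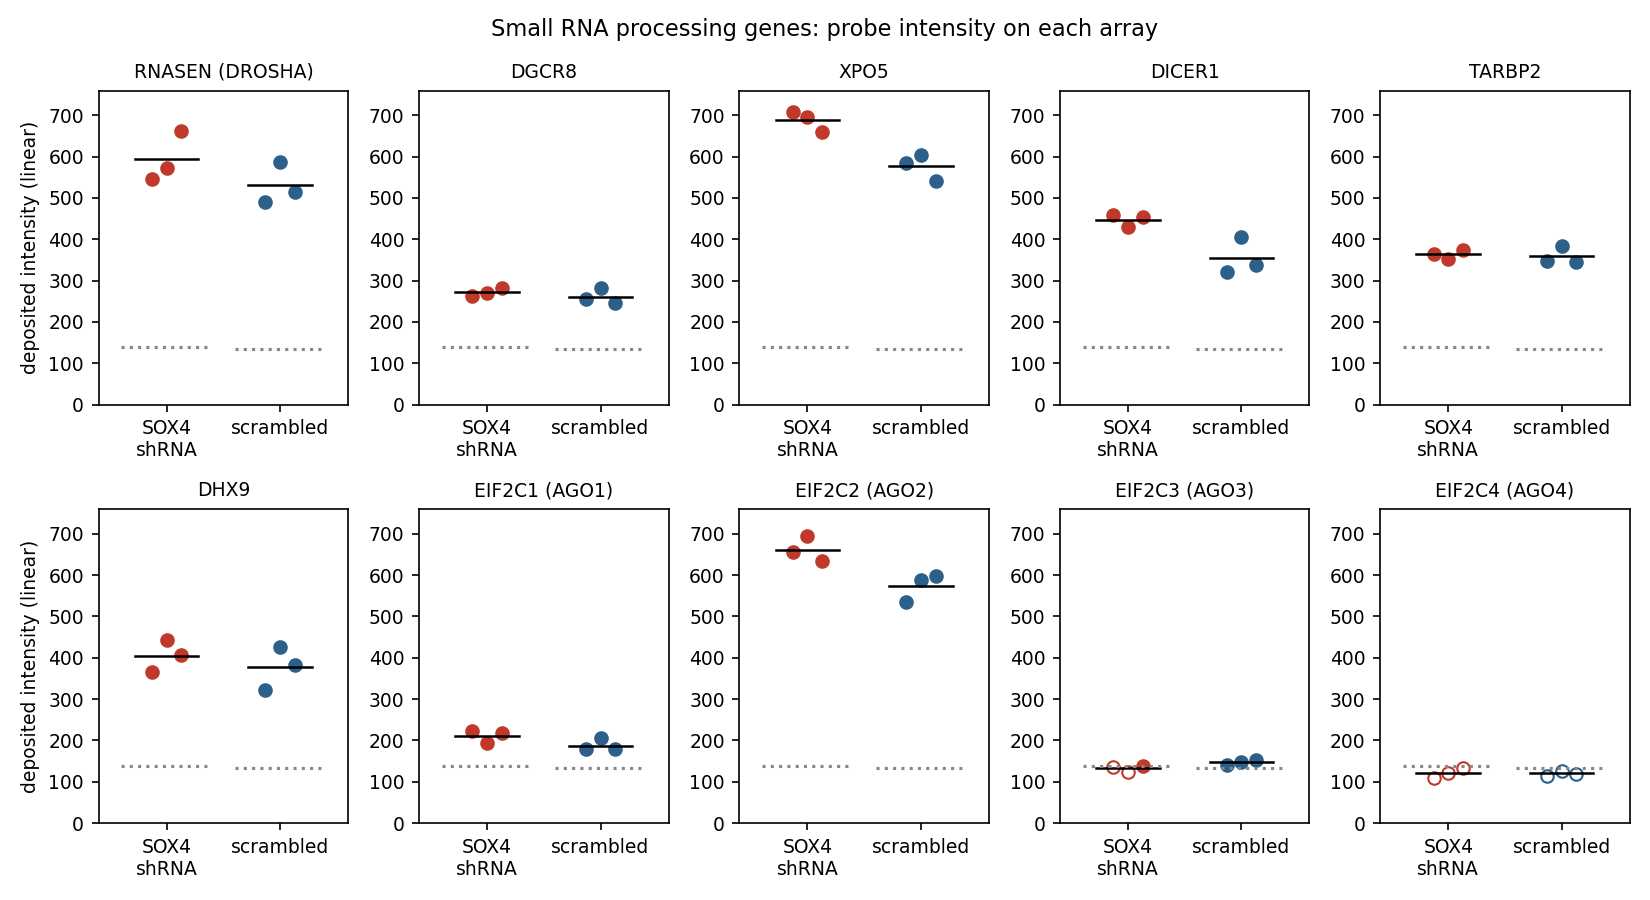
Deposited probe intensity (linear scale) of each small RNA processing gene on the 3 SOX4 shRNA and the 3 scrambled arrays, with the probe that stands for the gene. Each point is an array, filled where the probe was detected, the black line is the group mean and the dotted line the mean over a group's arrays of the lowest detected intensity. The DICER1 points of the SOX4 shRNA arrays, 429.9 to 459.5, lie above all scrambled points, and all 6 EIF2C4 points are open.

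The nuclear steps came first. RNASEN, the Drosha gene (chromosome 5, 31400494 to 31532093, GRCh38.p14), had intensities of 546.1, 572.4 and 661.4 on the SOX4 shRNA arrays and 490.9, 586.7 and 515.3 on the scrambled arrays. The ranges overlapped. Its log2 difference was 0.08 ± 0.08 (± SE, n = 3 in each group; adjusted p = 0.49, limma), and the 95% interval of the ratio ran from 0.942 to 1.19. A dimmer RNASEN probe, ILMN_2152095, was not above background on any array.

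DGCR8 (chromosome 22, 20080241 to 20111872), whose product recognises the primary hairpin, had intensities of 263.7, 270.3 and 282.9 on the SOX4 shRNA arrays and 254.8, 283.1 and 245.2 on the scrambled arrays. The SOX4 shRNA values all lay within the scrambled range. The log2 difference was -0.02 ± 0.10 (± SE, n = 3 in each group), with a 95% interval of the ratio from 0.855 to 1.14, and the adjusted p was 0.91 in limma. Drosha is known to cut a hairpin within the DGCR8 messenger itself, so the levels of these partners are coupled. Neither gene differed here by more than its replicate error.

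XPO5, the export receptor of precursor hairpins (chromosome 6, 43522334 to 43576038), had intensities of 708.8, 696.5 and 660.7 on the SOX4 shRNA arrays and 585, 602.8 and 540.9 on the scrambled arrays. The groups did not overlap in deposited intensity, but after normalization the lowest SOX4 shRNA value, 9.05, lay just below the highest scrambled value, 9.06, on the log2 scale. The log2 difference was 0.19 ± 0.08 (± SE, n = 3 in each group; adjusted p = 0.054, limma), with an interval of the ratio from 1.03 to 1.28. It thus stood just outside the threshold, and it stayed outside under 11 of 15 alternatives, with adjusted p up to 0.22 (limma). Under the other 4 it passed. The adjusted p was 0.043 with cyclic loess and 0.0497 with the mean of each gene's probes. It was 0.033 without SOX4 shRNA array 3 (log2 difference 0.24) and 0.032 without scrambled array 1 (log2 difference 0.25).

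DICER1 encodes the RNase III enzyme that makes the mature duplex (chromosome 14, 95086228 to 95158010). Its brightest probe, ILMN_1772692, had intensities of 459.5, 429.9 and 452.9 on the SOX4 shRNA arrays and 320.4, 405.9 and 338.5 on the scrambled arrays. Every SOX4 shRNA array was above every scrambled one, also after normalization, where the values were 8.47, 8.32 and 8.38 against 7.92, 8.25 and 7.97 on the log2 scale. DICER1 rose by 0.34 ± 0.09 on the log2 scale (± SE, n = 3 in each group; adjusted p = 0.0056, limma), a ratio of 1.27 with an interval from 1.11 to 1.44. Of all genes tested 17.9% had a smaller p, and by size of difference DICER1 ranked 2572 of 12451. Groups that do not overlap were found for 42.0% of all genes tested and for 2 of the 9 genes here.

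The other 3 DICER1 probes were dimmer. ILMN_2349831, detected on all 6 arrays, had intensities of 189, 174 and 188.4 on the SOX4 shRNA arrays and 162, 157.4 and 168.9 on the scrambled arrays, and its log2 difference of 0.26 ± 0.15 (± SE, n = 3 in each group) did not pass the threshold (adjusted p = 0.20, limma, every kept probe). Its point estimate had the sign of the brightest probe. The last pair of DICER1 probes was not above background on any array. In the authors' log2 values, which give 1 value per symbol, the DICER1 difference was 0.39 ± 0.28 and the call was lost (± SE, n = 3 in each group; adjusted p = 0.46, limma). The group means there were 4.23 with SOX4 shRNA and 3.84 with scrambled, against 8.39 and 8.05 for the brightest probe. The values compared are thus not at the same level, and which probes enter the authors' value was not tested. Leaving out any 1 array kept the call, with log2 differences from 0.28 to 0.44.

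The 250 bases before the DICER1 start farthest upstream are shown because the depleted gene encodes a SOX-family factor, whose DNA-binding domain reads short AT-rich words. They are from RefSeq and lie on the minus strand at chr14:95158011-95158260 (GRCh38.p14), written 5′ to 3′.
DICER1: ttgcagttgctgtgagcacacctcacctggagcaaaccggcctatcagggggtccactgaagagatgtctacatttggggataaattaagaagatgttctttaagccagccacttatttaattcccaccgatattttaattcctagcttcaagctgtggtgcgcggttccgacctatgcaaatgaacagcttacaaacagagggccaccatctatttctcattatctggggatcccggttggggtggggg
These bases hold none of the 8 SOX-type words of the form NNCAANG in which each N is A or T, searched on both strands. Of the 5 DICER1 windows of 300 bases in the RefSeq promoter table, 2 hold such a word, both at starts further inside the gene. The stretches around the words follow with the word in capitals, at chr14:95136883-95136909, chr14:95136832-95136858 and chr14:95133541-95133567 on the minus strand.
DICER1, 98 bases before the start: ttggaaagtcCATTGTTaggctgggct
DICER1, 47 bases before the start: tattgatgtcATCAATGacccaggttc
DICER1, 54 bases before the start: tctgtgctttCTTTGTTtttaaccctg
Some word of the 8 occurs in 20.4% of all 35116 windows of this length in the table. Over the genes of the group whose windows were searched, which leave out EIF2C2, 3 of 15 windows hold one, the third being the EIF2C1 window. A word is a description of the letters and says nothing about binding.

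TARBP2, which encodes TRBP (chromosome 12, 53500923 to 53506431), had intensities of 364.6, 352.6 and 375.1 on the SOX4 shRNA arrays and 348.4, 383.9 and 344.3 on the scrambled arrays, and the ranges overlapped. The log2 difference was -0.08 ± 0.09 (± SE, n = 3 in each group; adjusted p = 0.50, limma), with an interval of the ratio from 0.835 to 1.07. Its second probe, ILMN_2310253, had a log2 difference of -0.23 ± 0.13 (adjusted p = 0.20, limma, every kept probe), with intensities of 195.1 to 221.7 on the SOX4 shRNA arrays and 204.2 to 223 on the scrambled arrays.

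DHX9, an RNA helicase that works in transcription and is found with the RNA-induced silencing complex (chromosome 1, 182839347 to 182887982), has 4 probes. The brightest, ILMN_1656016, had intensities of 365.9, 442.5 and 407 on the SOX4 shRNA arrays and 323.2, 426.8 and 382.5 on the scrambled arrays. Its log2 difference was 0.03 ± 0.10 (± SE, n = 3 in each group; adjusted p = 0.84, limma), with an interval of the ratio from 0.886 to 1.18. A second probe of similar range, ILMN_1690965, gave -0.09 ± 0.09, and a dim one, ILMN_1676285, gave -0.08 ± 0.20. The probes differ in sign, and none passed the threshold. Over every kept probe of the chip 28.9% passed it and in 40.7% the groups did not overlap, against 2 of 13 probes of these genes for each. The fourth, ILMN_1652155, was detected on 0 SOX4 shRNA arrays and on 2 scrambled arrays and was not tested.

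**Figure D2:**
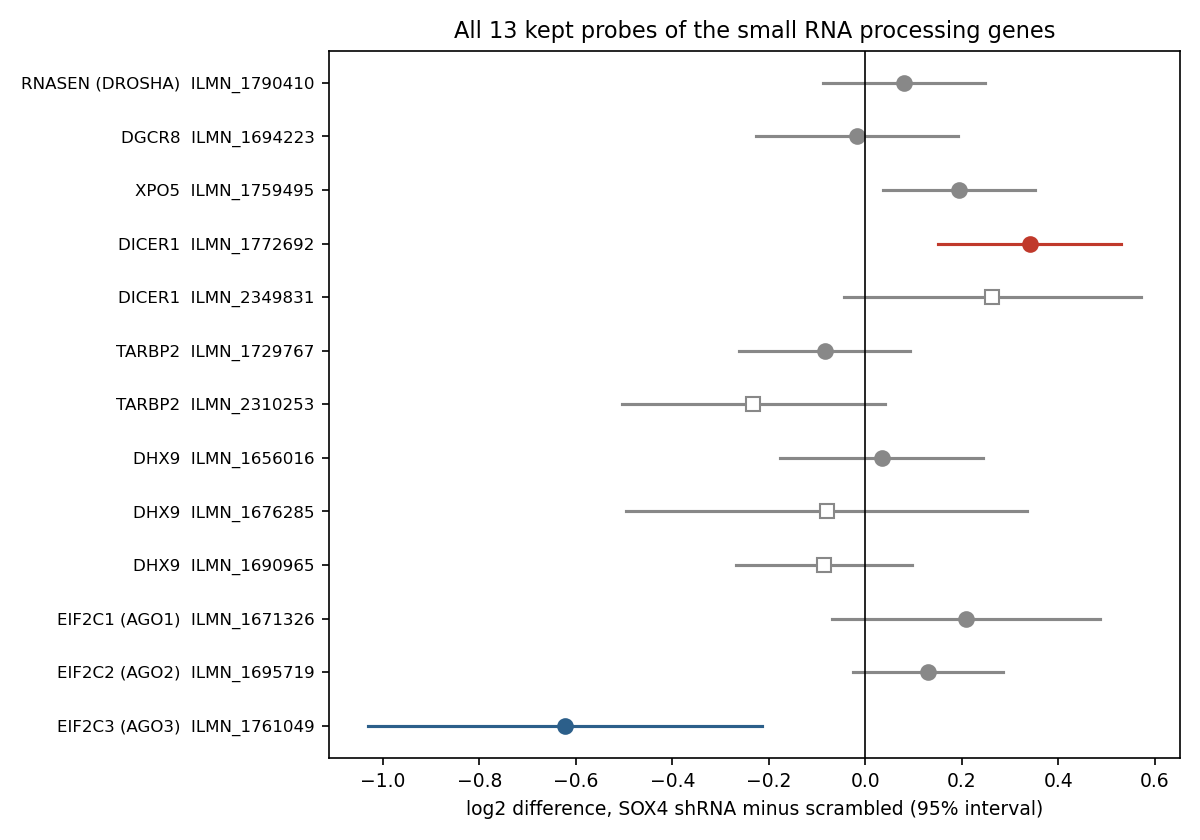
Log2 difference, SOX4 shRNA minus scrambled, of each of the 13 kept probes of the small RNA processing genes, with its 95% interval from limma. Filled circles are the probes that stand for their gene and open squares its other probes. Colour marks an adjusted p under 0.05, and the DICER1 probe at 0.34 and the EIF2C3 probe at -0.62 are the ones in colour.

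The 4 Argonautes are the proteins that hold the guide strand, and AGO2 is the classical slicing member, which cuts the target of a perfectly matched guide such as that of a knockdown hairpin. EIF2C2, which encodes AGO2 (chromosome 8, 140520156 to 140642313), had intensities of 655.3, 694.5 and 633.9 on the SOX4 shRNA arrays and 536, 588.8 and 597.2 on the scrambled arrays. These did not overlap, whereas the normalized values did (9.10, 9.16 and 8.98 with the SOX4 hairpin, 8.90, 8.91 and 9.03 with the scrambled one, on the log2 scale). The log2 difference was 0.13 ± 0.07 (± SE, n = 3 in each group; adjusted p = 0.20, limma), and the interval of the ratio ran from 0.984 to 1.22.

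EIF2C1, which encodes AGO1 (chromosome 1, 35869761 to 35930532), had intensities of 222.3, 193.8 and 218.3 on the SOX4 shRNA arrays and 178.5, 205.6 and 178.5 on the scrambled arrays. The ranges overlapped through SOX4 shRNA array 2 and scrambled array 2a. The log2 difference was 0.21 ± 0.13 (± SE, n = 3 in each group; adjusted p = 0.26, limma), with an interval of the ratio from 0.954 to 1.40.

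EIF2C3, which encodes AGO3 (chromosome 1, 35930718 to 36072500), was close to background. Its brighter probe, ILMN_1761049, had intensities of 136, 124.3 and 139.3 on the SOX4 shRNA arrays, where it was detected on 1, and 141.4, 148.5 and 152.1 on the scrambled arrays, where it was detected on all 3. The lowest detected intensity of any probe was 131.7 to 139.6 per array. The scrambled arrays alone were enough for the probe to pass the detection filter, which favoured a fall. EIF2C3 fell by 0.62 ± 0.20 on the log2 scale (± SE, n = 3 in each group; adjusted p = 0.019, limma), a ratio of 0.65 with an interval from 0.489 to 0.863, and the groups did not overlap. So near the floor the size depends on the background correction: without it the log2 difference was -0.19. The call was lost without SOX4 shRNA array 2 (log2 difference -0.47, adjusted p = 0.11), without scrambled array 2b (-0.54, adjusted p = 0.088), with no detection filter (adjusted p = 0.064) and in the authors' values (-0.63, adjusted p = 0.29). The other EIF2C3 probe was not above background on any array.

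EIF2C4, which encodes AGO4 (chromosome 1, 35807636 to 35857890), was not above background on any array. Its single probe had intensities of 109.2, 120.8 and 134.3 on the SOX4 shRNA arrays and 113.8, 127.2 and 119.8 on the scrambled arrays, and it did not enter the fit after the detection filter. Its difference in the authors' values was -0.07 (adjusted p = 0.94, limma).

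AGO4, AGO1 and AGO3 lie in a row on chromosome 1, with 185 bases between the end of AGO1 and the start of AGO3. They gave no common pattern: AGO4 was undetected, AGO1 had a log2 difference of 0.21 and AGO3 one of -0.62. Of the 3 protein-coding genes on either side, ADPRHL2 (current symbol ADPRS) fell by 0.49 ± 0.06 (adjusted p = 1.3e-06, limma) and PSMB2, a proteasome subunit, fell by 0.25 ± 0.05 (adjusted p = 0.00074, limma; SE, n = 3 per group). CLSPN, a replication checkpoint gene, had 0.16 ± 0.21 and did not pass the threshold. Its sign turned without scrambled array 2b (-0.03). C1ORF216 (-0.10 ± 0.13) and COL8A2 (-0.19 ± 0.17) did not pass the threshold either, and TEKT2 was not tested. Over all genes tested 15.4% fell.

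**Figure D3:**
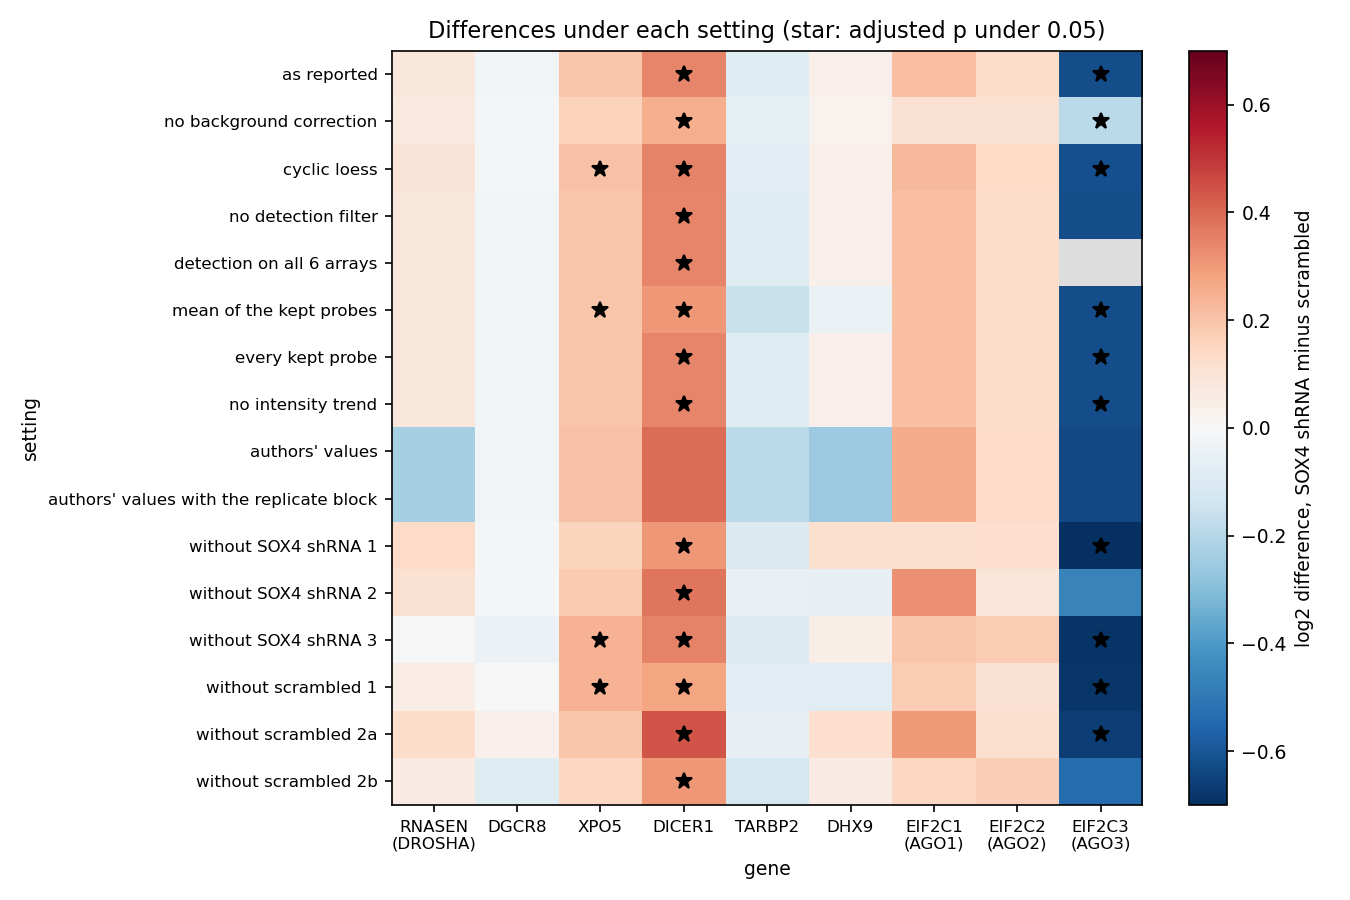
Log2 difference, SOX4 shRNA minus scrambled, of the 9 tested genes (columns) under each processing setting (rows), on a colour scale, with a star where the adjusted p was under 0.05 and grey where the gene was not tested. DICER1 carries a star in all rows but those of the authors' values, and EIF2C3 loses it in several.

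The wider pathway was looked at through lists of partner genes. Together 52 of 64 partners on the chip could be tested, of which 4 rose and 8 fell, a share of 23.1% against 30.6% of all genes. The median log2 difference over them was -0.02. The lists were small and each was counted without a set test.

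Among 12 measured nuclear processing and export partners, 0 rose and 3 fell, with a median log2 difference of -0.02. The splicing and primary microRNA binding factor HNRNPA1 fell by 0.26 ± 0.08 and by 0.52 on its other kept probe, and its difference in the authors' values was -0.45. NCBP2, a cap-binding subunit, did not pass on the probe that stands for it (-0.18), while a dimmer probe rose (0.48, adjusted p = 0.045, limma, every kept probe). RAN, the GTPase that loads exportin cargo, fell by 0.24 ± 0.06, with intensities of 7076, 6050 and 7254 on the SOX4 shRNA arrays and 7802, 7860 and 7120 on the scrambled arrays. DDX5, a helicase of the Microprocessor, fell by 0.21 ± 0.05, with intensities of 4189, 4050 and 4263 on the SOX4 shRNA arrays and 4390, 4736 and 4757 on the scrambled arrays (± SE, n = 3 in each group, log2 scale). The call of RAN was lost with no intensity trend (adjusted p = 0.095); those of DDX5 and HNRNPA1 held under all 15 alternatives.

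Among 8 measured Dicer partners and enzymes that edit or tail precursors, 1 rose and 0 fell, with a median of 0.08. ADARB1, an adenosine deaminase that edits double-stranded RNA, rose by 0.32 ± 0.09 on the log2 scale (± SE, n = 3 in each group; adjusted p = 0.0062, limma). Its intensities were 429.4, 434.5 and 433.4 on the SOX4 shRNA arrays and 355, 362.9 and 316.6 on the scrambled arrays, with no overlap. The call was lost in the authors' values (0.37, adjusted p = 0.49) and without scrambled array 2b (0.25, adjusted p = 0.050). PRKRA, the other double-stranded RNA-binding partner of Dicer, had 0.10 ± 0.07 and ADAR 0.15 ± 0.07, neither past the threshold. ZCCHC11, which adds uridines to precursors, did not pass on its brightest probe (-0.21 ± 0.11), while its other kept probe fell by 0.36 (adjusted p = 0.037, limma, every kept probe). LIN28 and LIN28B, which block let-7 precursors, were not above background on any array.

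Among 12 measured genes of Argonaute loading and its partners, 2 rose and 1 fell, with a median of -0.03. GEMIN4, found with Argonaute in messenger ribonucleoprotein particles, rose by 0.19 ± 0.05, and the chaperone HSP90AB1, needed to load the duplex, by 0.16 ± 0.05 on the log2 scale. SND1, a nuclease found in silencing complexes, fell by 0.18 ± 0.07 (± SE, n = 3 in each group; adjusted p = 0.048, limma). The SND1 call was lost under 10 of 15 alternatives, among them without SOX4 shRNA array 2 (-0.13) or 3 (-0.19) and without scrambled array 1 (-0.14), 2a (-0.20) or 2b (-0.20). That of HSP90AB1 was lost under 5 of 15 alternatives, among them without SOX4 shRNA array 2 (0.15) or scrambled array 2b (0.13). With no intensity trend the calls of HSP90AB1 (adjusted p = 0.12, limma) and GEMIN4 (adjusted p = 0.058, limma) were lost.

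Among 20 measured silencing effectors, which carry out deadenylation, decapping and decay, 1 rose and 4 fell, with a median of -0.04. PABPC1, the poly(A)-binding protein contacted by the GW182 proteins, rose by 0.29 ± 0.05, with intensities of 9452, 8895 and 9178 on the SOX4 shRNA arrays and 7268, 7683 and 6706 on the scrambled arrays. TNRC6B, a GW182 scaffold, fell by 0.37 ± 0.10, while its relative TNRC6A had 0.01 ± 0.16 and TNRC6C was not above background. The deadenylase subunits CNOT1 and CNOT3 fell by 0.32 ± 0.07 and 0.35 ± 0.13 on the log2 scale (± SE, n = 3 in each group). In the authors' values the calls of TNRC6B (-0.26), CNOT1 (-0.36) and CNOT3 (-0.46) were lost. That of CNOT3 was lost under 11 of 15 alternatives. Among them were those without SOX4 shRNA array 1 (-0.36) or 2 (-0.24) and without scrambled array 1 (-0.32), 2a (-0.36) or 2b (-0.37). The CNOT3 difference was -0.17 without background correction. The other CNOT1 probe had -0.04, and with the mean of its probes CNOT1 lost its call (-0.18, adjusted p = 0.11). TNRC6B lost its call with no intensity trend (adjusted p = 0.056). LSM14A, a P-body protein, fell by 0.20. Its call was lost under 4 of 15 alternatives, among them without SOX4 shRNA array 1 (-0.17) or scrambled array 2b (-0.17). None of the 4 PIWI genes, the germline branch of the family, was above background on any array.

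**Figure D4:**
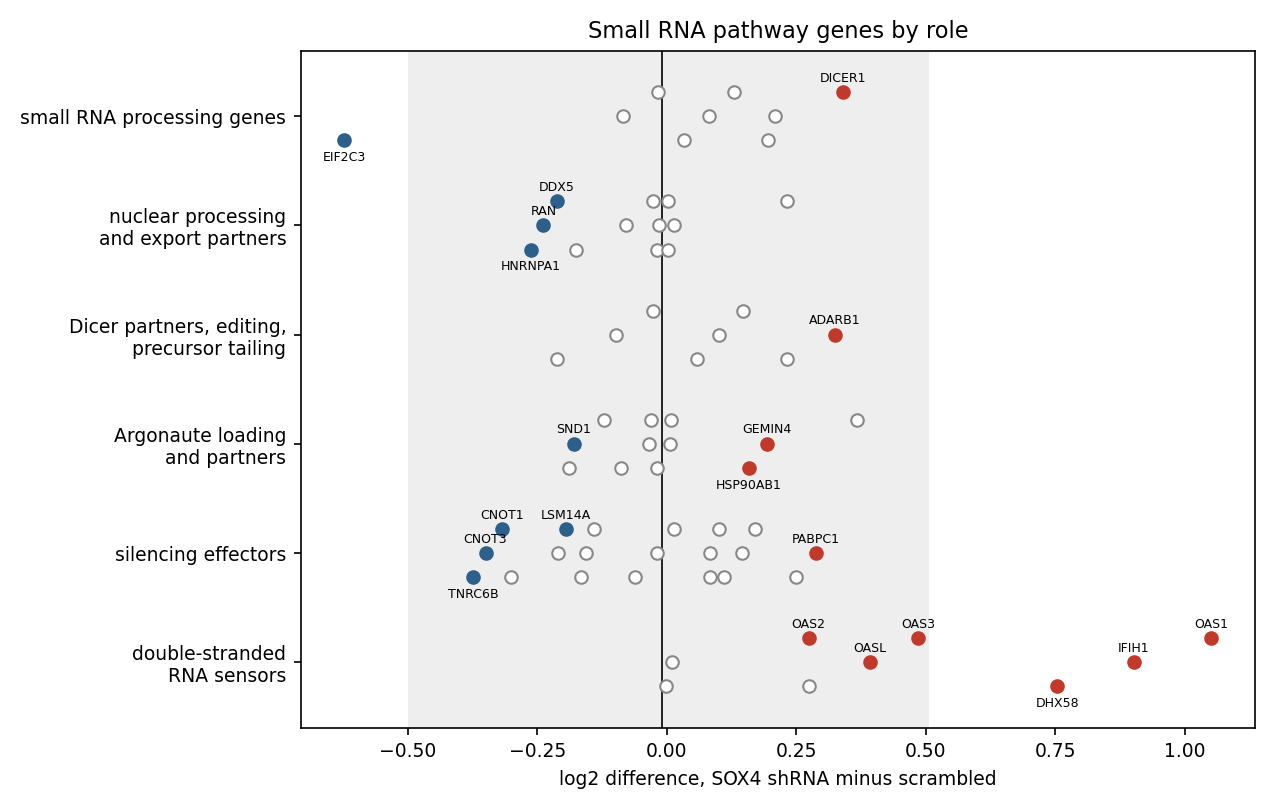
Log2 difference, SOX4 shRNA minus scrambled, of each measured gene of the small RNA pathway by role, red where it rose and blue where it fell at an adjusted p under 0.05 and open otherwise. The grey band covers the 5th to 95th percentile of all genes tested (-0.50 to 0.50) and the vertical line their median; EIF2C3 lies left of the band, and OAS1, IFIH1 and DHX58 lie right of it.

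Sensors of double-stranded RNA read the kind of molecule that Dicer cuts, and they are also induced by interferon. Of 9 measured sensors 6 rose and 0 fell, a share of 66.7% beside 30.6% of all genes, with a median log2 difference of 0.39. OAS1 passed the detection filter only through the SOX4 shRNA arrays, which fixed its direction, and without it 5 of 8 rose (62.5%) with a median of 0.33. IFIH1, which senses long duplexes, rose by 0.90 ± 0.12 on the log2 scale (± SE, n = 3 in each group; adjusted p = 1e-06, limma), with intensities of 259.8, 294.1 and 292.5 on the SOX4 shRNA arrays and 176.5, 205.5 and 184.5 on the scrambled arrays. DHX58, a regulator of the same receptor family, rose by 0.75 ± 0.18, and it was detected on 2 of the 3 scrambled arrays. For OAS1 the kept probe was detected on 0 scrambled arrays, and on the background-corrected scale the SOX4 shRNA level was at least 1.54 times as high (adjusted p = 0.0003, limma). Without background correction its log2 difference was 0.33. Another OAS1 probe was detected on some scrambled arrays. DDX58, the RIG-I gene, had 0.27 ± 0.11 (adjusted p = 0.057, past the threshold under 3 of 15 alternatives) and EIF2AK2, the kinase PKR, 0.01 ± 0.07 (adjusted p = 0.93, limma). OAS2, OASL and OAS3 also rose, by 0.27, 0.39 and 0.49.

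The sensor calls varied in how firm they were. IFIH1 and DHX58 passed the threshold under every alternative in which they were tested, while in the authors' values 2 of the list rose, OAS1 having 0.79 there (adjusted p = 0.13). Without background correction the differences of IFIH1, DHX58 and OAS3 were 0.51, 0.25 and 0.20, and DHX58 had 1.33 in the authors' values. OASL lost its call in the authors' values (0.20) and with the mean of its probes (0.19). The call of OAS3 was lost under 6 of 15 alternatives, among them without SOX4 shRNA array 2 (0.48) or 3 (0.46) or scrambled array 2b (0.32). That of OAS2 was also lost under 6 of 15, among them without SOX4 shRNA array 1 (0.21) or 3 (0.26) or scrambled array 2a (0.24). The other kept OASL probe had a log2 difference of -0.01. The list is not independent, since an interferon-type rise in these data was known when it was drawn up.

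The chip also carries probes named for microRNA genes, which do not report the mature microRNA. They were read here as probes of precursor or host transcripts, which was not tested. Of 575 such probes, 14 (2.43%) were detected on at least 3 arrays, against 33.2% of all probes, and 541 were detected on no array. MIR1909 was among the 14 only through the SOX4 shRNA arrays, which fixed its direction. Of the other 13, MIR130A and MIR1978 fell, 0 rose and 11 did not pass the threshold, a share called of 15.4% beside 30.6% of all genes. MIR1909 had intensities of 147.6, 147.4 and 156.4 on the SOX4 shRNA arrays and 127.1, 131.6 and 120.2 on the scrambled arrays, where it was never above background, and was at least 1.32-fold higher on the background-corrected scale (adjusted p = 0.0071, limma). Its log2 difference was 0.21 without background correction and 1.44 in the authors' values. It lies within REXO1, whose own log2 difference was 0.19 and did not pass the threshold (adjusted p = 0.16, limma).

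MIR130A had intensities of 121.7, 127.7 and 146.8 on the SOX4 shRNA arrays, where it was detected on 1, and 154.2, 151.5 and 136.2 on the scrambled arrays. The scrambled arrays alone were enough for it to pass the detection filter, which favoured a fall. MIR130A fell by 0.67 ± 0.22 on the log2 scale although the groups overlapped (± SE, n = 3 in each group; adjusted p = 0.023, limma). That call was lost under 8 of 14 alternatives, among them without SOX4 shRNA array 1 (-0.51) or 2 (-0.61) and without scrambled array 1 (-0.53) or 2a (-0.66). The MIR130A difference was -0.21 without background correction and -1.32 in the authors' values. MIR1978 fell by 0.20 ± 0.06. Its call was lost under 4 of 15 alternatives, among them without SOX4 shRNA array 1 (-0.17) or scrambled array 1 (-0.17). Of the 14 symbols, 11 matched the RefSeq microRNA table. MIR599, MIR1974 and MIR1978 had no entry in it, so it does not tell what their probes report. The mature sequences it holds for the changed ones are shown with the seed, bases 2 to 8, in capitals, since the seed sets which messengers are recognised.
hsa-miR-1909-5p: uGAGUGCCggugccugcccug
hsa-miR-1909-3p: cGCAGGGGccgggugcucaccg
hsa-miR-130a-5p: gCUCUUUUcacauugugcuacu
The 3 seeds shown differ. hsa-miR-130a-3p and MIR1978 are not shown. The printed hsa-miR-1909-5p and hsa-miR-1909-3p lie on chromosome 19 at 1816203 to 1816223 and 1816169 to 1816190 (minus strand), GRCh38.p14. The printed hsa-miR-130a-5p lies on chromosome 11 at 57641212 to 57641233 (plus strand).

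The arrays detected 15197 to 16187 probes each, and precision is limited by having 3 per group. Across kept probes, which are not independent replicates, arrays of a group correlated at 0.994 or above and arrays of different groups at 0.982 or below. The line markers VIM and CD44 were detected on all 6 arrays, and CDH1, ESR1 and PGR on none; ERBB2 was detected on all 6. VIM fell by 0.23 (adjusted p = 0.00047, limma) and on its other probe by 0.34, and CD44 did not pass the threshold (-0.07). Of the markers of leucocytes, endothelium and fibroblasts, PTPRC, CD3D, CDH5, VWF, PDGFRA and DCN were detected on no array. LYZ (136.2 to 153.7 on the SOX4 shRNA arrays, 142.4 to 152.8 on the scrambled arrays), PECAM1 (137.1 to 158.3 and 126.3 to 142.2) and LUM (139.7 to 151.3 and 125.5 to 130.1) lay at the edge of detection, and none passed the threshold. LUM was detected on 3 SOX4 shRNA arrays and 0 scrambled arrays, so it passed the detection filter only through the SOX4 shRNA arrays, which fixed its direction. Its log2 difference was 0.49 (adjusted p = 0.069, limma), and the groups did not overlap. The part of these markers in the results was not tested.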

How the data were processed

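RNA from 6 MDA-MB-231 samples was run on HumanHT-12 v4 chips from Illumina, with GenomeStudio 2011.1 named in the submitters' processing notes. The deposited intensity of each probe is linear and non-normalized per the file headers, with a deposited detection p-value per probe and array. They also deposited log2 values with 1 row per gene symbol, for which the file headers name RMA and ArrayStar. The authors' table of fold changes was not used here. A pair of scrambled intensity columns carry the heading of replicate 2 and none that of replicate 3. Both were used as scrambled arrays, called 2a and 2b.

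Intensities were normalized with neqc (offset 16) in limma 3.58.1 under R 4.3.3. Probes with a detection p under 0.01 ("detected", "above background") on at least 3 of 6 arrays were kept, and the brightest stood for each symbol. The difference was fitted by lmFit and moderated by eBayes (trend on), with Benjamini-Hochberg adjustment over 12451 rows and a threshold of 0.05. Intervals are 95%. A fold is a bound where 1 group never detected the probe: the bright mean was then divided by the dim group's mean after raising each dim array to at least its lowest detected signal. Authors' values were tested where a group mean reached 2.5.

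The members and lists were chosen with earlier results of these data known. Named are all members, up to 3 raised and 3 lowered genes per partner list, SOX4 and up to 5 changed microRNA probes. LSM14A, OAS2, OASL, OAS3, DDX58, EIF2AK2, NCBP2, ZCCHC11, the neighbours of the Argonautes, REXO1 and other unchanged genes were named after their values were seen. Symbols are the chip's, and current names, positions and sequences are from RefSeq (GRCh38.p14). The fit was tested on simulated data. Figures used matplotlib 3.10.9 under Python 3.11.15. In the authors' values, deviations of same-numbered samples from their group means correlated at 0.014, -0.0018 and -0.023. No shared deviation was seen, and the main fit did not pair the samples. These correlations cannot tell whether same-numbered samples were handled together. One marker of another cell type is not reported here.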

Additional observations from a re-analysis of the deposited data

How the results depend on the processing

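Background correction, normalization (cyclic loess, or the authors' values), the detection filter, the choice of probe, the intensity trend, the replicate block and each single array were varied in turn. DICER1 lost its call in the authors' values only (without and with the block), with differences from 0.26 to 0.44 over all alternatives. Of the 10 genes, 2 rose with cyclic loess and with the mean of the kept probes, XPO5 being added. In the authors' values 0 rose and 0 fell, without the replicate block and with it, and 0 fell with no detection filter or with detection on all 6 arrays, where EIF2C3 was not tested. With 1 array left out, 1 to 2 rose and 0 to 1 fell. EIF2C1, EIF2C2 and TARBP2 kept their sign and stayed outside the threshold under all alternatives. Small differences turned sign: RNASEN in the authors' values (-0.23, with and without the block) and without SOX4 shRNA array 3 (-9.34e-05), DHX9 with the mean of the kept probes (-0.044), in the authors' values (-0.25, with and without the block) and without SOX4 shRNA array 2 (-0.057) or scrambled array 1 (-0.078), DGCR8 without scrambled array 2a (0.034), CLSPN without scrambled array 2b (-0.030), and EIF2AK2 without SOX4 shRNA array 1 (-0.012) or 3 (-0.0020) or scrambled array 1 (-0.0078). With 1 array left out, these ranged up to 0.132 for RNASEN, 0.118 for DHX9, 0.0438 for EIF2AK2 and 0.273 for CLSPN, and down to -0.0837 for DGCR8. The authors' means of RNASEN were 5.65 with SOX4 shRNA and 5.88 with scrambled, against 8.89 and 8.81 in the main fit. Those of DHX9 were 5.99 and 6.25, against 8.20 and 8.16. For these genes, as for DICER1, the authors' values are not at the level of the brightest probe. The causes were not tested.

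Of 24 other named calls, 9 held under every alternative in which they were tested (3 of them, SOX4, DHX58 and MIR1909, were not tested with detection on all 6 arrays), 13 were lost in the authors' values or with the block there, and 0 turned sign. Over all rows, 1891 rose and 1916 fell, against 1295 and 1238 in the authors' values, and 1173 and 1105 there with the replicate block. The labels share replicate numbers, but same-numbered samples showed no shared deviation, which does not tell whether they were handled together. Counts per list also moved. The sensors that rose were 6, and 2 in the authors' values. The effectors that fell were 4, against 1 with no intensity trend or in the authors' values, 0 there with the block, and 2 without SOX4 shRNA array 1 or scrambled array 2b; 2 effectors rose without SOX4 shRNA array 1. Of the Dicer partners, 0 rose in the authors' values. Of the nuclear partners, 1 rose with cyclic loess and without SOX4 shRNA array 2 or scrambled array 1. Of the Argonaute partners, 1 rose with no detection filter, no intensity trend, the block, or without SOX4 shRNA array 2 or scrambled array 2b; 0 fell with no detection filter, with every kept probe, with no intensity trend, in the authors' values, or without any 1 array other than SOX4 shRNA array 1. EIF2C3, EIF2C4, OAS1, MIR1909 and MIR130A lie near background, which limits what their values show.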
